A study of Mus musculus with 8 samples.

Results

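The genes described here are those that encode the subunits of the oxidative phosphorylation machinery of mitochondria. They were taken from the deposited expression table by name and chromosome, as the protein-coding genes on the mitochondrial chromosome or with the symbol of a subunit of complexes I to V. The table of 54532 genes held 97 such genes, of which 84 are nuclear and 13 are mitochondrial. The nuclear subunits comprised 35 of complex I, 4 of complex II, 8 of complex III, 19 of complex IV and 18 of complex V. The mitochondrial subunits comprised 7 of complex I, 1 of complex III, 3 of complex IV and 2 of complex V.

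All libraries came from MICFs, cardiac fibroblasts isolated from infarcted hearts of C57BL/6 mice 6 days after infarction. The cells carried tetracycline-inducible lentiviruses for MGT (Mef2c, Gata4 and Tbx5), Myocd, Sall4 and eGFP, and doxycycline was given in every group. For the *in vivo* groups, the cells were placed in the left ventricle of male C57BL/6 mice, 8 weeks old, right after ligation of the coronary artery. Those hosts received daily tacrolimus, mycophenolate mofetil and methylprednisolone. For the *in vitro* groups, the cells stayed in a culture medium that also held SB431542, an inhibitor of the TGF-β receptor, and baricitinib, a JAK inhibitor. The drugs in the host and in the medium therefore differed along with the site. Cells positive for eGFP were sorted after 1 week (Day 7) or 2 weeks (Day 14), with 2 libraries in each of the 4 groups. There was no group without the reprogramming factors. Which hosts or wells a library came from is not given in the sources used here, so p-values measure only the spread between these libraries, which may be technical.

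Oxidative phosphorylation passes electrons from NADH and succinate through complexes I to IV to oxygen, and uses the proton gradient so formed to make ATP at complex V. Complexes I, III, IV and V are built from subunits of both genomes, whereas complex II is wholly nuclear. Cardiomyocytes are among the cells richest in mitochondria, and heart muscle uses its own isoforms of several complex IV subunits, while fibroblasts rely more on the ubiquitous isoforms.

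Values are FPKM, the fragments on a gene scaled by its length and by library size, and each library had between 12304242 and 14546904 fragments on genes. Markers of several cell types moved with the site. The summed FPKM of 8 fibroblast markers was 10148 to 13231 *in vivo* and 2080 to 3179 *in vitro*. Col1a1, Col1a2, Col3a1 and Postn made up most of that sum. Of the 8, 7 were called higher *in vivo* in week 1 and 8 in week 2, but some differed little. In week 1 Pdgfra was at 20.1 and 21.6 *in vivo* and 20.2 and 19.8 *in vitro*, and Tcf21 at 41.3 and 45.6 against 38.3 and 31.6. The sum of 12 cardiomyocyte markers was 86.7 to 103 *in vivo* and 204 to 224 *in vitro* at 1 week, and 112 to 116 against 714 to 799 at 2 weeks. Among them, Actn2 and Myl3 had at most 3 fragments in every *in vivo* library, and Ckm was at 0 in both *in vitro* libraries of 1 week. Atp2a2 made up most of the *in vivo* sums. It was at 76.1 and 89.9 *in vivo* and 98.5 and 107 *in vitro* at 1 week, and at 93.9 and 91.9 against 164 and 154 at 2 weeks. Actc1 was at 2.64 and 4.08 against 34.7 and 38.0, and then at 4.11 and 6.66 against 324 and 288. Of the 11 cardiomyocyte markers tested, 6 were called lower *in vivo* and 1 higher in week 1, and 9 lower and 2 higher in week 2. The filter for testing asked for an FPKM of 0.5 or more in 2 or more libraries. Myl2 and Pln passed it only through *in vivo* libraries, and Actn2, Myl3, Myh6 and Ryr2 only through *in vitro* libraries, where each was high. The sum of 10 macrophage markers was 1810 to 2874 *in vivo* and 4566 to 5670 *in vitro*, with none of the 10 at 0. Lyz2 carried most of that gap, and without it the sums of 1 week overlapped, at 1178 and 1421 *in vivo* and 1391 and 1656 *in vitro*. Of the 10, 4 were called lower *in vivo* in week 1 and 7 in week 2, and Fcgr1 was higher in both. The sum of 4 mesothelial markers was 9.08 to 24.7 *in vivo* and 220 to 449 *in vitro*, and that of 6 endothelial markers 63.8 to 80.5 and 19.8 to 47.7. The part of these shifts in the subunit results was not tested. In bulk samples, fewer cells of a type and less RNA per cell cannot be told apart.

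Subunit mRNA took a smaller part of every *in vivo* library than of every *in vitro* library. The 13 mitochondrial genes held 1.24% and 1.32% of the fragments in the In vivo 1w libraries and 2.78% and 2.72% in the In vitro 1w libraries. At 2 weeks they held 1.40% in both *in vivo* libraries and 2.59% and 2.64% *in vitro*. The *in vitro* mean was 2.15 times the *in vivo* mean at 1 week and 1.87 times at 2 weeks. The 84 nuclear genes held 0.448% and 0.426% *in vivo* at 1 week and 0.700% and 0.644% *in vitro*. At 2 weeks they held 0.444% and 0.479% *in vivo* and 0.847% and 0.864% *in vitro*, a ratio of 1.54 at 1 week and 1.85 at 2 weeks. No *in vivo* library overlapped an *in vitro* library in either share. These shares leave out the scaling between libraries that the deposited FPKM hold. Without it the median of all genes was also lower *in vivo* at both times, as given below. Part of each ratio is therefore shared with the median gene. Several mitochondrial genes share most of their sequence with a nuclear copy, as given below, and how such fragments were counted is not given. The mitochondrial share is thus that of the fragments listed, and its level is uncertain.

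**Figure D1:**
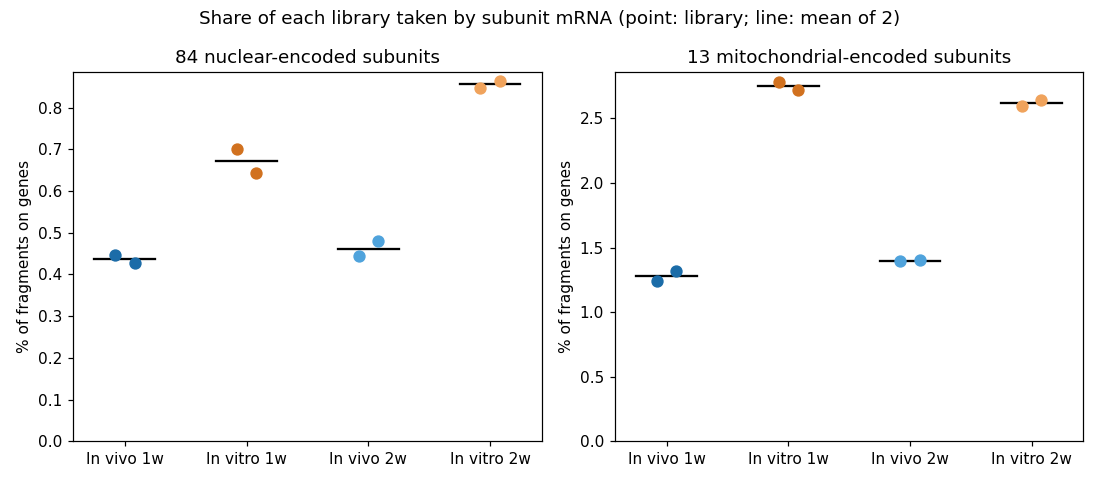
Share of the fragments on genes that fell on the 84 nuclear-encoded (left) and the 13 mitochondrial-encoded (right) subunits, in percent, for the 4 groups on the x axis; points are libraries and lines are means of 2. The nuclear share lies at 0.426% to 0.479% in the 4 *in vivo* libraries and at 0.644% to 0.864% in the 4 *in vitro* libraries, and the mitochondrial share at 1.24% to 1.40% and 2.59% to 2.78%. The shares leave out the scaling between libraries that the deposited FPKM hold. How fragments shared with nuclear copies of mitochondrial genes were counted is not given, so the level of the mitochondrial share is uncertain.

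The first comparison asked how the transplanted cells differed from the cultured cells at each time. Of the 97 genes, 94 passed the filter on low values, which asked for an FPKM of 0.5 or more in 2 or more libraries. Cox7b2, Cox8c and a second Atp5o entry, ENSMUSG00000116933, were at 0 in every library. Genes were called at an adjusted p under 0.05 in a limma fit across 15708 genes. At 1 week, 54 of the 94 tested subunits were lower *in vivo* and 0 were higher by limma on FPKM. Limma voom on fragments called 86 lower and 0 higher. It was run without the scaling between libraries that the deposited FPKM hold, and in it the median of all genes was also lower *in vivo*. The share of all genes that voom called is not given here. At an unadjusted p under 0.05, 1 was higher on FPKM (Cox7a2l). In the fit on FPKM, 20.6% of all genes tested were called lower and 21.4% higher. At 2 weeks, 81 of the 94 were lower *in vivo* and 0 were higher, beside 25.2% lower and 24.6% higher among all genes. Limma voom, again without that scaling, called 91 lower and 0 higher, and 1 was higher on FPKM at an unadjusted p under 0.05 (Atp5s). The calls covered 42 of 81 nuclear and 12 of 13 mitochondrial subunits at 1 week, and 72 of 81 and 9 of 13 at 2 weeks. In all, 50 subunits were called lower at both times, a count without a background, since the share of all genes called at both times is not given here.

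The size of the differences was modest for most nuclear subunits. Their medians on the log2 scale, *in vivo* minus *in vitro*, were -0.27 at the first time and -0.58 at the second, while the median of all genes tested was -0.01 and 0.00. The mitochondrial subunits had medians of -1.08 and -0.81. A stricter rule asked for an adjusted p under 0.01 with an absolute log2 fold change over 1. Of the 94 tested subunits, 7 were lower by it at 1 week, beside 5.07% of all genes. At 2 weeks 8 of the 94 were lower by it, beside 8.05% of all genes, so that count was near the share of all genes. The 7 were mt-Nd1, mt-Nd2, mt-Nd3, mt-Nd5, mt-Nd6, mt-Co2 and Cox7a1. The 8 were mt-Nd3, mt-Nd6 and 6 nuclear subunits of complex IV, namely Cox4i2, Cox5a, Cox6a2, Cox6b2, Cox7a1 and Ndufa4. At an adjusted p under 0.05 with no minimum fold, the counts were 54 at 1 week and 81 at 2 weeks, as given above. Of these, the count at 1 week depended on single libraries. It was 28 without In vitro 1w replicate 1, 33 without In vivo 1w replicate 2 and 34 without In vivo 1w replicate 1, whereas the count at 2 weeks stayed between 67 and 82 whichever library was left out. The deposited FPKM hold a scaling between libraries, and without it 85 subunits were lower at 1 week and 91 at 2 weeks, with 0 higher, while the median of all genes moved to -0.34 and -0.32.

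**Figure D2:**
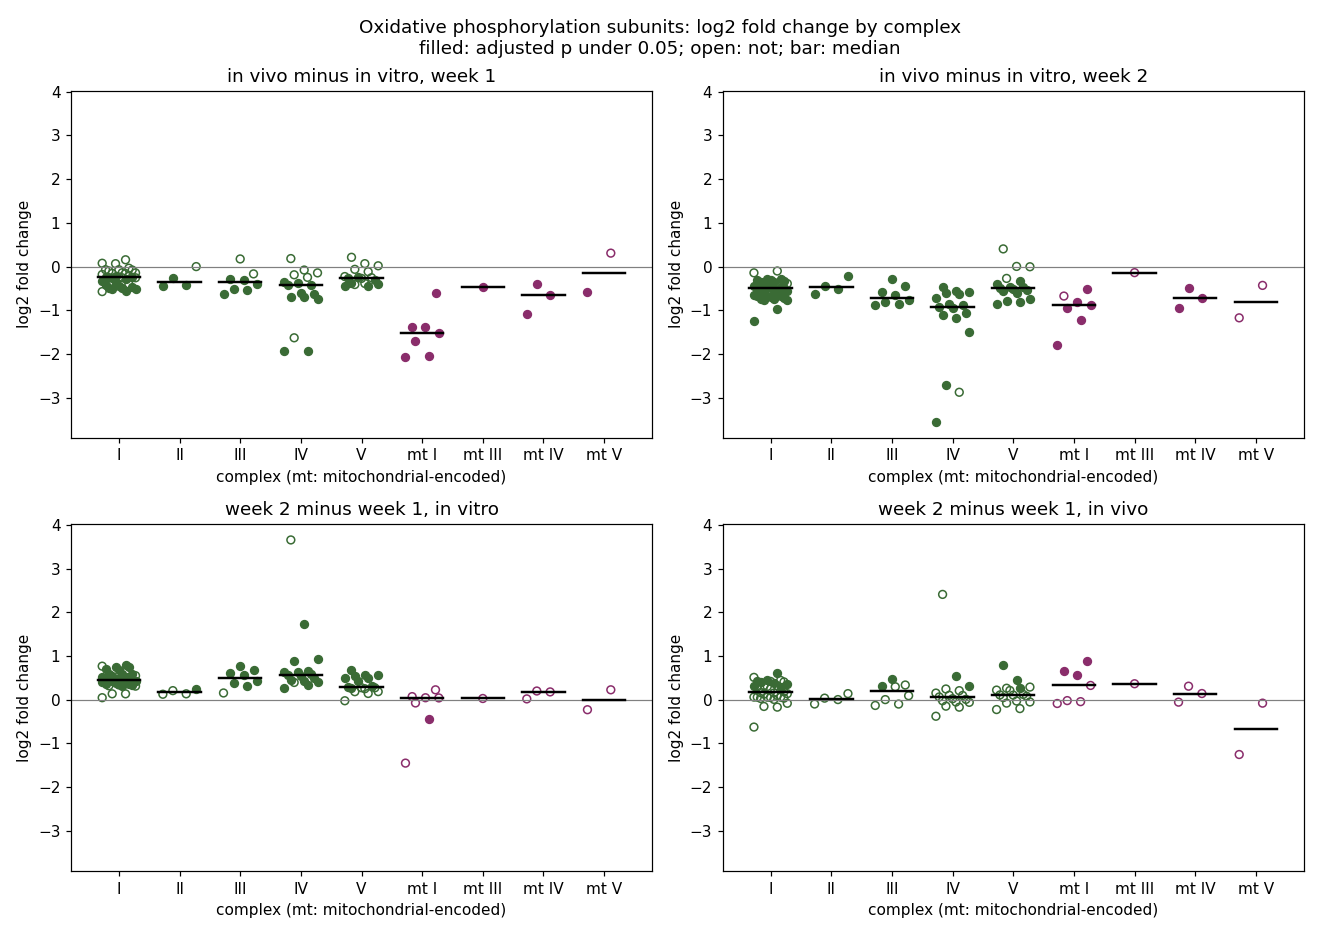
Log2 fold change (y axis) of each of the 94 tested subunits by complex (x axis), for *in vivo* minus *in vitro* at 1 week and 2 weeks (top) and for week 2 minus week 1 *in vitro* and *in vivo* (bottom). Filled points have an adjusted p under 0.05, open points do not, green is nuclear, purple is mitochondrial and bars are medians. At 2 weeks the lowest values are those of nuclear complex IV, down to -3.56, and the nuclear medians in culture over time lie at 0.17 to 0.58.

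The 13 mitochondrial subunits fell into levels far apart. In 7 of them (mt-Nd1, mt-Nd2, mt-Nd4, mt-Nd5, mt-Nd6, mt-Cytb and mt-Co1) FPKM was 546 to 6090 over all libraries. In the other 6 (mt-Nd3, mt-Nd4l, mt-Co2, mt-Co3, mt-Atp6 and mt-Atp8) it was 0.444 to 94.0. The mouse nuclear genome carries a copy of part of the mitochondrial chromosome at chr1:24611535-24616197 (GRCm38), where 7 pseudogenes are annotated. Of the 100-base stretches of mt-Nd3, mt-Nd4l, mt-Co2, mt-Co3 and mt-Atp6, 97.6% to 99.9% also stood in another annotated transcript, led by a pseudogene of that copy. The share was 60.8% for mt-Nd4, 30.8% for mt-Co1, 3.20% for mt-Nd2 and 0% for mt-Nd1, mt-Nd5, mt-Nd6, mt-Cytb and mt-Atp8. mt-Atp8 lies between mt-Co2 and mt-Atp6 on the mitochondrial chromosome and overlaps mt-Atp6. How such shared fragments were counted is not given in the sources used here, so the levels of these genes are uncertain, and counts are given below for the 6 low genes and the other 7 apart. For 2 genes, a stretch from each genome is shown because it carries this limit, with differing bases in capitals, each read 5′ to 3′ along the gene on GRCm38. The first pair is mt-Nd3 at chrMT:9459-9518 (plus strand) and Gm28438 at chr1:24613060-24613119 (minus strand), which differ at 1 of 60 bases. The second is mt-Co2 at chrMT:7323-7382 (plus strand) and Gm28661 at chr1:24615196-24615255 (minus strand), which differ at 0 of 60.
mt-Nd3: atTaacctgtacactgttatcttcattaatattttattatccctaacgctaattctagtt
Gm28438: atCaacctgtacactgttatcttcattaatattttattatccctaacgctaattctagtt
mt-Co2: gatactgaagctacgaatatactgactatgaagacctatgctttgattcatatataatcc
Gm28661: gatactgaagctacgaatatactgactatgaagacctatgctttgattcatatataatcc

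Over their whole annotated length, Gm28438 matched mt-Nd3 at 344 of 345 bases, and Gm28661 matched mt-Co2 at 681 of 681. Of the 7 pseudogenes, Gm28661 was listed at 18.9 to 47.7 FPKM beside 22.0 to 74.2 for mt-Co2.

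**Figure D3:**
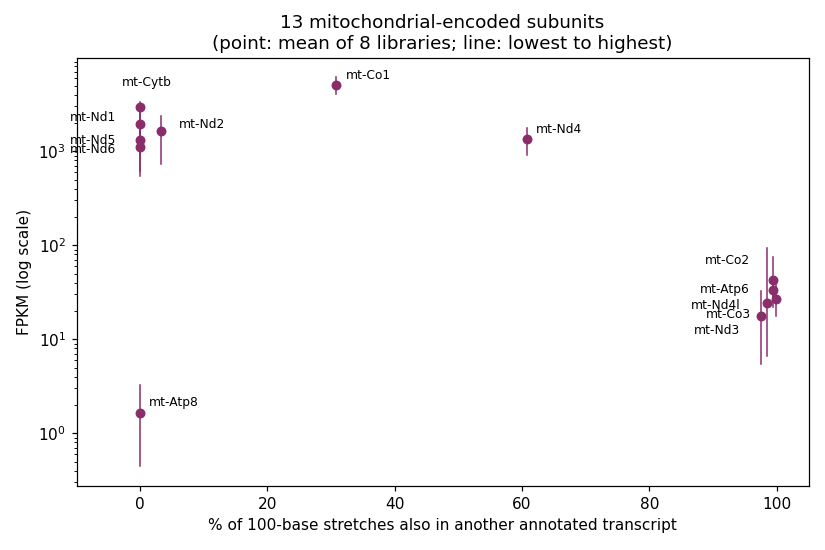
Level of the 13 mitochondrial-encoded subunits (y axis, FPKM on a log scale; point, mean of 8 libraries; line, lowest to highest library) against the percentage of their 100-base stretches that also stand in another annotated transcript (x axis). The 5 genes at 97.6% to 99.9% and mt-Atp8 lie under 100 FPKM, and the other 7 lie at 546 FPKM or above.

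The core subunits of complex I made in mitochondria, which form its membrane arm, had median log2 fold changes of -1.51 and -0.88 over their 7 genes. mt-Nd1 (ENSMUSG00000064341, chrMT:2751-3707) was at 926 and 1040 FPKM in the In vivo 1w libraries and 2647 and 2510 in the In vitro 1w libraries. At 2 weeks its values were 1529 and 1548 *in vivo* and 2609 and 2807 *in vitro*. Every *in vivo* value was under every *in vitro* value, and the log2 fold changes were -1.39 ± 0.10 (SE, n = 2 per group) in week 1 and -0.81 ± 0.10 in week 2 (adjusted p by limma of 6.5e-05 and 0.00058). mt-Nd6 is the sole protein gene of the light strand. It was at 546 and 668 FPKM *in vivo* and 1886 and 2088 *in vitro* at 1 week, and at 618 and 554 against 2011 and 2071 at 2 weeks, which gave -1.72 ± 0.12 and -1.80 ± 0.12 on the log2 scale. Whether the counting used strand is not given in the sources used here, so fragments of transcripts that run across mt-Nd6 on the heavy strand cannot be told apart from its own. mt-Nd2 and mt-Nd5 were lower *in vivo* by 1.51 ± 0.11 and 1.37 ± 0.12 on the log2 scale at 1 week and by 0.88 ± 0.11 and 0.94 ± 0.12 at 2 weeks. mt-Nd4 was lower by 0.61 ± 0.10 and 0.51 ± 0.10.

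The most abundant mitochondrial mRNAs, mt-Co1 and mt-Cytb, had smaller differences. mt-Cytb, the catalytic core of complex III, was at 2105 and 2494 FPKM *in vivo* and 3285 and 3101 *in vitro* at 1 week, a log2 fold change of -0.48 ± 0.12 (adjusted p by limma 0.017). The values at 2 weeks were 2897 and 3006 against 3145 and 3364, which did not pass the test (-0.14, 95% interval -0.42 to 0.14). mt-Co1, the catalytic core of complex IV, was at 4038 to 4442 FPKM *in vivo* and 5774 to 6090 *in vitro*, with log2 fold changes of -0.41 ± 0.12 and -0.49 ± 0.12. The call of mt-Co1 at 1 week was lost when any one of 6 libraries was left out (all but the In vitro 2w libraries). At 2 weeks it was lost without In vivo 2w replicate 2 or In vitro 2w replicate 2. That of mt-Cytb was lost without In vivo 1w replicate 1 or In vitro 1w replicate 1. In all, the call of mt-Co1 was lost in 11 of 21 alternatives at 1 week and in 5 at 2 weeks, the stricter rule among them. That of mt-Cytb at 1 week was lost in 5 of 21. Of these 7 genes with little or partly shared sequence, 7 were lower *in vivo* at 1 week and 6 at 2 weeks.

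Among the 6 genes of low level, 5 were called lower at 1 week and 3 at 2 weeks. mt-Nd3 was at 5.40 and 7.06 FPKM *in vivo* and 26.51 and 25.97 *in vitro* at 1 week, and at 10.95 and 11.97 against 22.65 and 32.33 at 2 weeks (-2.07 ± 0.18 and -1.23 ± 0.18). mt-Co2, a copper-binding core subunit of complex IV, was lower by 1.08 ± 0.20 and 0.95 ± 0.20 on the log2 scale, and mt-Co3 by 0.65 ± 0.17 and 0.71 ± 0.17. mt-Atp6, part of the proton channel of complex V, was at 27.3 and 29.5 against 42.6 and 42.6 FPKM at 1 week (-0.58 ± 0.18) and did not pass the test at 2 weeks (-0.43 ± 0.18). The call of mt-Atp6 was lost without any one library of the In vivo 1w, In vitro 1w or In vivo 2w groups. That of mt-Co3 was lost without In vivo 1w replicate 1 or In vitro 1w replicate 2 at 1 week, and without In vivo 2w replicate 1 or In vitro 2w replicate 2 at 2 weeks. In all, the call of mt-Atp6 at 1 week was lost in 9 of 21 alternatives, and that of mt-Nd4l in 10. mt-Atp8 had at most 9 fragments in any library and passed at neither time. The replicates of mt-Nd4l stood far apart. It had 102 fragments in In vitro 1w replicate 1 and 417 in replicate 2, and 35 and 47 in the In vivo 1w libraries, and its call at 1 week (-2.04 ± 0.66) was lost without any one of 5 libraries, In vitro 1w replicate 2 among them.

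Among the nuclear subunits of complex I, 15 of 35 were lower *in vivo* at 1 week and 31 of 35 at 2 weeks, with median log2 fold changes of -0.25 and -0.50. The lowest value at 1 week, -0.57 ± 0.22 for the accessory subunit Ndufb2, did not pass (adjusted p by limma 0.076). Ndufa12, an accessory subunit of the NADH-oxidising arm, had the highest value at 1 week (0.15 ± 0.29, not called) and the lowest at 2 weeks (-1.24 ± 0.29). It was at 7.46, 5.87, 6.50 and 5.42 FPKM in the 4 libraries of 1 week. At 2 weeks the values were 4.35 and 4.16 *in vivo* and 7.28 and 14.2 *in vitro*, so that the *in vitro* replicates stood apart by more than the groups did at 1 week. The call of Ndufa12 was lost without In vivo 2w replicate 2. At the other end at 2 weeks, Ndufs8, an iron–sulfur subunit, was at 41.7 and 51.4 FPKM *in vivo* and 48.4 and 51.2 *in vitro*, groups that overlapped (-0.10, 95% interval -0.40 to 0.19). Ndufb2 was low throughout, at 0.65 to 1.52 FPKM, and its call at 2 weeks (-0.73 ± 0.22) was lost on leaving out In vivo 2w replicate 1, In vitro 2w replicate 1 or In vitro 2w replicate 2.

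All 4 subunits of complex II, succinate dehydrogenase, were lower *in vivo* at 2 weeks and 3 of them at 1 week. Sdha, the flavoprotein that oxidises succinate, was at 34.96 and 36.09 FPKM *in vivo* and 48.73 and 48.76 *in vitro* at 1 week. The values at 2 weeks were 39.96 and 38.32 against 53.20 and 53.11. The groups did not overlap, and the log2 fold change was -0.46 ± 0.05 and -0.44 ± 0.05. The membrane anchors Sdhc and Sdhd were lower by 0.42 ± 0.07 and 0.27 ± 0.07 at 1 week and by 0.62 ± 0.07 and 0.51 ± 0.07 at 2 weeks. Sdhb, the iron–sulfur subunit, was at 26.5 and 25.4 *in vivo* and 25.7 and 26.2 *in vitro* at 1 week, with overlap (0.00 ± 0.06), and at 26.3 and 26.8 against 29.6 and 31.8 at 2 weeks (-0.21 ± 0.06). The call of Sdhd at 1 week was lost without In vivo 1w replicate 2, In vitro 1w replicate 1 or In vitro 1w replicate 2, and that of Sdhb at 2 weeks without In vivo 2w replicate 1, In vivo 2w replicate 2 or In vitro 2w replicate 2.

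Of the 8 nuclear subunits of complex III, 6 were lower *in vivo* at 1 week and 8 at 2 weeks, with medians of -0.36 and -0.71. The small accessory subunit Uqcr10 was at 49.6 and 45.7 FPKM *in vivo* and 81.1 and 66.1 *in vitro* at 1 week, and at 63.4 and 68.4 against 111 and 113 at 2 weeks (-0.62 ± 0.10 and -0.77 ± 0.10). Uqcr11 was lower by 0.54 ± 0.11 and 0.88 ± 0.11. Uqcrc1, a core protein of the complex, was lower by 0.28 ± 0.07 at both times, and each of its calls was lost without any one of 3 libraries. Those were 3 of the 4 compared, leaving In vitro 1w replicate 2 and In vivo 2w replicate 1 as the exceptions. The call of Uqcr11 at 1 week was lost without In vivo 1w replicate 2 or In vitro 1w replicate 1. Uqcrh, the hinge protein next to cytochrome c1, was at 69.5 and 62.2 FPKM *in vivo* and 62.1 and 54.8 *in vitro* at 1 week (0.17 ± 0.08, not called). At 2 weeks it was at 66.3 and 65.4 *in vivo* and 98.4 and 99.4 *in vitro* (-0.59 ± 0.08), while the *in vivo* values of both times overlapped.

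Complex IV, cytochrome c oxidase, held the nuclear subunits with the lowest values. Of its 17 tested nuclear subunits, 11 were lower *in vivo* at 1 week and 16 at 2 weeks, with medians of -0.43 and -0.93. Cox6a1 and Cox8a were the most abundant nuclear subunits. Cox6a1 was at 178 and 176 FPKM *in vivo* and 275 and 266 *in vitro* at 1 week, and at 220 and 218 against 392 and 399 at 2 weeks (-0.61 ± 0.06 and -0.85 ± 0.06). Cox8a was at 208 and 204 against 300 and 258, and then at 226 and 214 against 407 and 453 (-0.43 ± 0.09 and -0.96 ± 0.09). Cox5a, which binds the core from the matrix side, was lower by 0.74 ± 0.07 and 1.17 ± 0.07. Ndufa4, first assigned to complex I and now counted in complex IV, was lower by 0.71 ± 0.09 and 1.11 ± 0.09. Cox4i1 and Cox7b did not pass at 1 week (-0.15 ± 0.06 and -0.19 ± 0.07) and were lower at 2 weeks by 0.56 ± 0.06 and 0.47 ± 0.07. Cox6b1 and Cox7a2 were lower at both times, by 0.39 ± 0.07 and 0.42 ± 0.10 at 1 week and by 0.89 ± 0.07 and 0.93 ± 0.10 at 2 weeks. At 1 week the call of Cox7a2 was lost without In vivo 1w replicate 2 or In vitro 1w replicate 1, and that of Cox8a without In vivo 1w replicate 2. Cox7a2l, a factor in the pairing of complexes III and IV, was at 119 and 115 FPKM *in vivo* and 106 and 100 *in vitro* at 1 week (0.18 ± 0.07, not called) and lower *in vivo* at 2 weeks (-0.61 ± 0.07).

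Several complex IV subunits have a second isoform restricted to certain tissues. Cox6a2, Cox7a1 and Cox8b are the isoforms of heart and skeletal muscle, Cox4i2 is known from lung and Cox6b2 from testis. Cox7a1 (ENSMUSG00000074218, chr7:30184144-30186078, plus strand) had the lowest fold change of all tested subunits at 2 weeks. It was at 0.96 and 1.58 FPKM in the In vivo 1w libraries and 5.34 and 4.63 in the In vitro 1w libraries, from 6, 11, 44 and 37 fragments. At 2 weeks Cox7a1 was at 1.16 and 1.52 *in vivo* and 17.4 and 16.1 *in vitro*, from 7, 9, 129 and 117 fragments. On the log2 scale it was lower *in vivo* by 1.93 ± 0.23 and then by 3.56 ± 0.23 (adjusted p by limma of 0.00071 and 3.4e-05). Within the Cox7a family of Cox7a1 and Cox7a2, Cox7a1 made up 2.05% and 3.60% of FPKM in the In vivo 1w libraries and 7.61% and 8.01% in the In vitro 1w libraries. At 2 weeks it made up 2.61% and 3.39% *in vivo* and 18.0% and 15.9% *in vitro*, so the share in the cultured cells at 2 weeks stood above that of every other library.

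Cox6a2 was low, at 4 and 13 fragments *in vivo* and 45 and 31 *in vitro* at 1 week and 4 and 6 against 54 and 37 at 2 weeks. That gave -1.94 ± 0.46 and -2.71 ± 0.46 on the log2 scale, and its call at 1 week was lost without In vitro 1w replicate 1. It made up at most 0.825% of Cox6a FPKM *in vivo* and at most 1.54% *in vitro*. Cox8b had 3 and 0 fragments *in vivo* and 3 and 6 *in vitro* at 1 week. At 2 weeks it had 2 and 15 *in vivo* and 55 and 54 *in vitro*. It passed no comparison in the limma fit on FPKM, while 7 of 21 alternatives called it lower *in vivo* at 2 weeks and 9 of 21 called it higher over time in culture, limma voom among both. Cox4i2 was at 6.39 and 5.16 against 10.6 and 8.24 FPKM at 1 week and 8.09 and 8.85 against 18.7 and 17.1 at 2 weeks (-0.69 ± 0.15 and -1.07 ± 0.15). For Cox6b2 the log2 fold changes were -0.64 ± 0.14 and -1.5 ± 0.14. At 1 week both calls were lost without In vivo 1w replicate 2 or In vitro 1w replicate 1, and that of Cox6b2 also without In vivo 1w replicate 1. The shares of Cox4i2 in its family, 4.24% to 5.94% *in vivo* and 6.0% to 8.87% *in vitro*, and of Cox6b2, 4.21% to 4.91% and 4.83% to 7.52%, lay closer together. The cardiomyocyte marker sum given above was higher *in vitro* at 2 weeks than in any other group, as Cox7a1 and the mesothelial sum were, and the part of these cells in the isoform values was not tested. Of the 11 cardiomyocyte markers tested, 9 were lower *in vivo* at 2 weeks and 2 were higher, Pln and Myl2. As given above, those 2 passed the filter on low values only through *in vivo* libraries, and some of the 9 only through *in vitro* libraries.

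**Figure D4:**
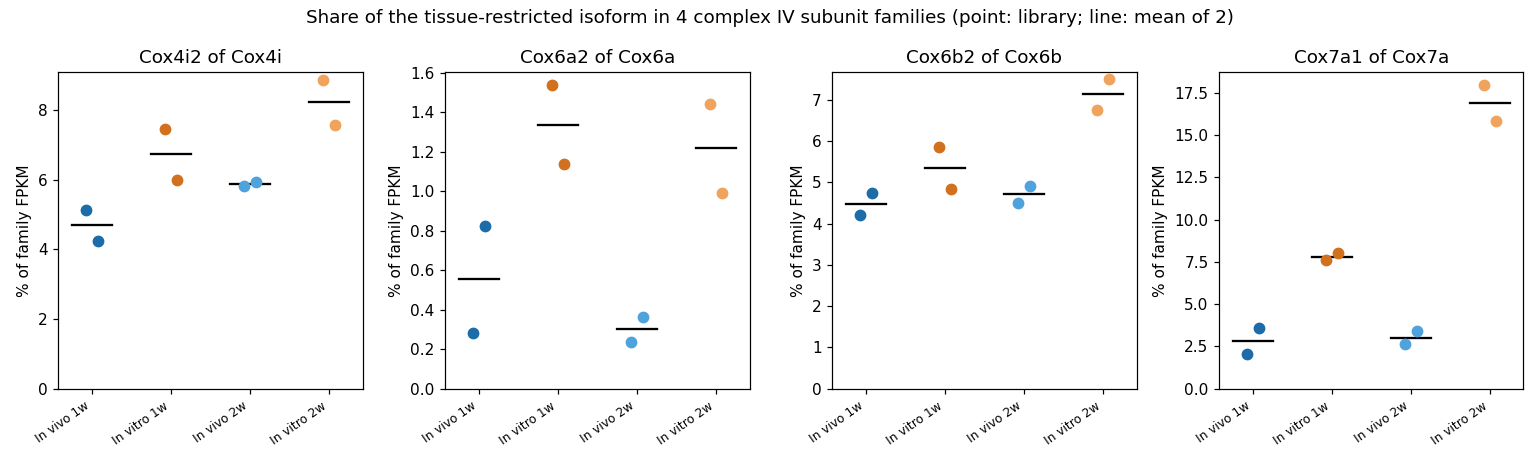
Share of the tissue-restricted isoform in the summed FPKM of its family (y axis, percent) for Cox4i2, Cox6a2, Cox6b2 and Cox7a1 in the 4 groups; points are libraries and lines are means of 2. Cox7a1 lies at 2.05% to 3.60% in the 4 *in vivo* libraries, at 7.61% and 8.01% in the In vitro 1w libraries and at 15.9% and 18.0% in the In vitro 2w libraries.

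Complex V is the ATP synthase. Of its 17 tested nuclear subunits, 7 were lower *in vivo* at 1 week and 13 at 2 weeks, with medians of -0.26 and -0.49. Atp5g1, Atp5g2 and Atp5g3 encode the same mature subunit c of the rotor ring. Atp5g3 was at 41.9 and 44.0 FPKM *in vivo* and 59.4 and 57.1 *in vitro* at 1 week, and at 43.4 and 49.1 against 81.8 and 81.4 at 2 weeks (-0.44 ± 0.07 and -0.82 ± 0.07). Atp5g2 was not called at 1 week (0.07 ± 0.09) and was lower at 2 weeks (-0.47 ± 0.09). For Atp5g2, 34.7% of the 100-base stretches also stood in transcripts of pseudogenes. Atp5g1, the least abundant, was at 5.41 and 6.84 against 7.83 and 6.94 FPKM at 1 week and at 8.30 and 8.42 against 8.51 and 8.28 at 2 weeks (-0.01, 95% interval -0.29 to 0.28), with the groups overlapping at 2 weeks. Atp5g3 thereby made up 41.8% to 47.1% of the family *in vivo* and 50.7% to 55.1% *in vitro*. The stator-side membrane subunits Atp5l and Atp5k were lower at 2 weeks by 0.79 ± 0.10 and 0.86 ± 0.17. Atp5e, the epsilon subunit of the central stalk, had the highest nuclear value of the complex at 1 week (0.21 ± 0.10, not called) and did not pass at 2 weeks (0.00, 95% interval -0.23 to 0.23). Without the scaling between libraries, Atp5e was lower *in vivo* at 2 weeks (-0.33). Atp5s, a coupling factor, was at 4.82 and 4.17 FPKM *in vivo* and 3.08 and 3.68 *in vitro* at 2 weeks, the highest fold change of any subunit (0.40 ± 0.15), which did not pass (adjusted p by limma 0.055).

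**Figure D5:**
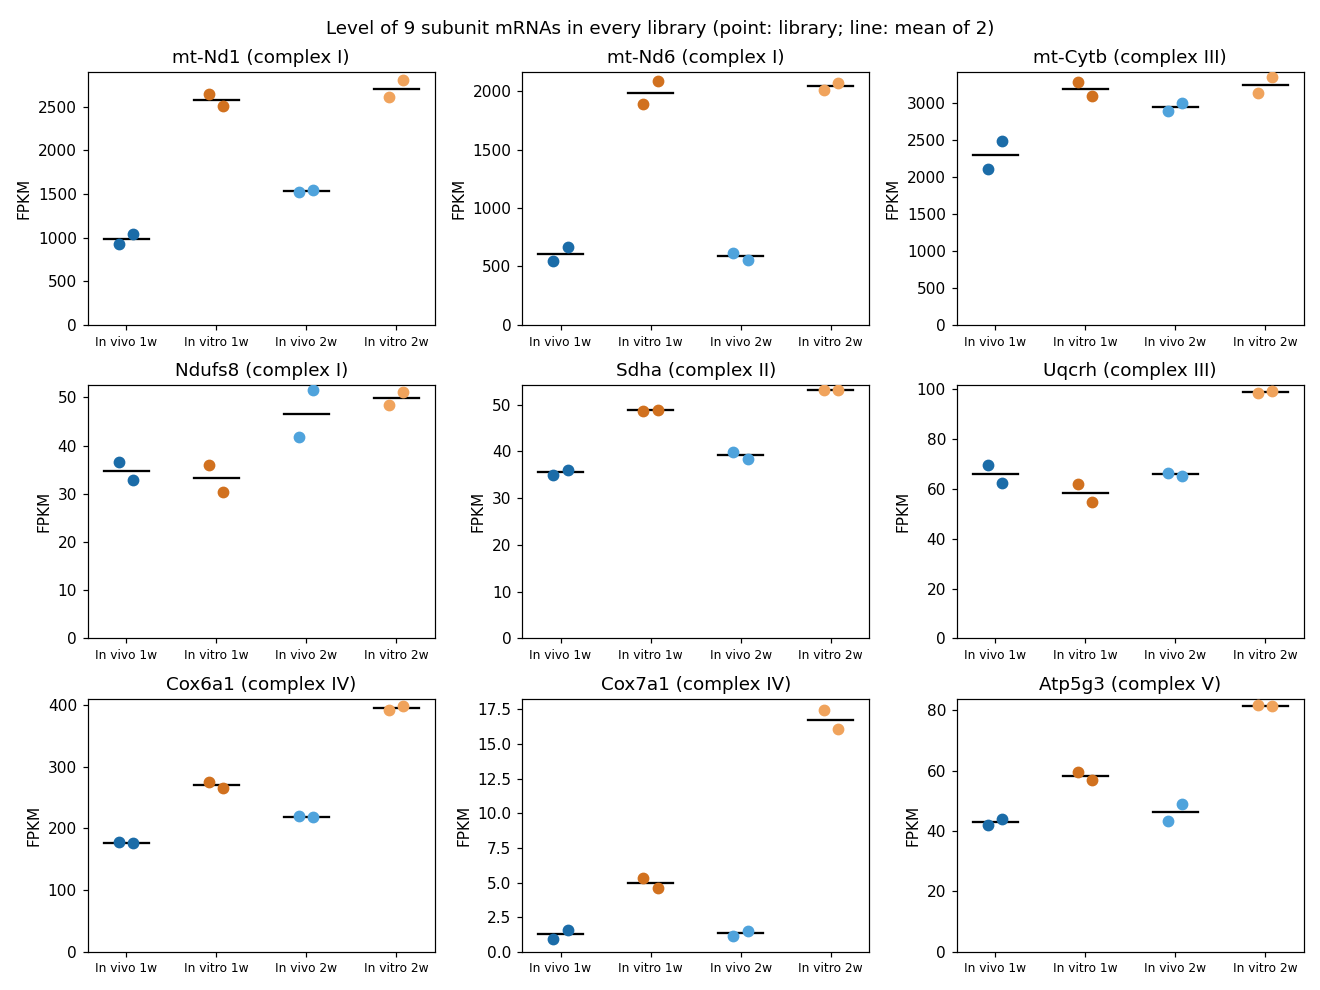
FPKM (y axis) of 9 subunit mRNAs in the 4 groups; points are libraries and lines are means of 2. mt-Nd1, mt-Nd6, Sdha, Cox6a1, Cox7a1 and Atp5g3 lie lower in every *in vivo* library than in any *in vitro* library, whereas Uqcrh *in vivo* (62.2 to 69.5) lies above the In vitro 1w libraries (54.8 and 62.1) and below the In vitro 2w libraries (98.4 and 99.4).

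The second comparison asked how the subunits changed from 1 week to 2 weeks at each site. It uses the same libraries as the first, so its results are not independent of the first. In culture, 59 of the 81 tested nuclear subunits were higher at 2 weeks and 0 were lower by limma, also at an unadjusted p under 0.05, beside 14.1% of all genes higher. The higher subunits were 26 of 35 in complex I, 1 of 4 in complex II, 7 of 8 in complex III, 15 of 17 in complex IV and 10 of 17 in complex V. The median nuclear log2 fold change was 0.44, and 80 of 81 values were above 0. Cox7a1 had the largest rise that passed (1.73 ± 0.23). It was the sole subunit higher by the stricter rule, beside 2.76% of all genes. Further rises were those of Uqcrh (0.76 ± 0.08), Cox4i1 (0.62 ± 0.06), Uqcr10 (0.62 ± 0.10), Cox6a1 (0.55 ± 0.06) and Atp5g3 (0.49 ± 0.07). Of the 4 complex II subunits only Sdhb rose (0.24 ± 0.06), and its call was lost without any one of 3 *in vitro* libraries, In vitro 1w replicate 1, In vitro 1w replicate 2 and In vitro 2w replicate 2.

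Few mitochondrial subunits passed the test in culture. Of the 13, 0 were higher by limma, also at an unadjusted p under 0.05, and 1 was lower at 2 weeks, mt-Nd5 (-0.45 ± 0.12), beside 11% of all genes lower. Their median was 0.04, and -0.15 to -0.01 under 4 other scalings. The call of mt-Nd5 was lost on leaving out any one *in vitro* library. mt-Nd1 *in vitro* was at 2647 and 2510 FPKM at 1 week and 2609 and 2807 at 2 weeks, which overlap. The number of nuclear calls in culture rested on single libraries too, since 26 remained higher without In vitro 2w replicate 2 and 28 without In vitro 1w replicate 2. It was 34 when every library was scaled to an equal sum over nuclear protein-coding genes, a scaling that moved the median of all genes to -0.16.

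*In vivo*, 18 of the 94 tested subunits were higher at 2 weeks and 0 were lower by limma and by limma voom, beside 8.59% of all genes higher. The 18 were 15 nuclear subunits and mt-Nd1, mt-Nd2 and mt-Nd3. Of the 15, 13 were also called higher in culture. That is a count without a background, since the share of all genes called higher at both sites is not given here. At an unadjusted p under 0.05, 2 subunits were lower. mt-Nd1 rose by 0.65 ± 0.10, mt-Nd2 by 0.56 ± 0.11 and mt-Nd3 by 0.88 ± 0.18. Atp5s rose by 0.79 ± 0.15 and Ndufs7, an iron–sulfur subunit of complex I, by 0.61 ± 0.07. The median was 0.12 for nuclear and 0.14 for mitochondrial subunits. The count depended on the fit. It was 2 when the 4 *in vivo* libraries were fitted alone and 2 without In vivo 1w replicate 1, 6 without In vivo 2w replicate 2, 8 without In vivo 1w replicate 2 and 10 without In vivo 2w replicate 1. With the equal sum it was 11 higher and 2 lower. The rises of mt-Nd1, mt-Nd2, mt-Nd3 and Atp5s were lost without In vivo 1w replicate 1. In all, their calls were lost in 4, 7, 7 and 4 of 21 alternatives.

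The difference between the weeks in the effect of site was tested as an interaction over all 8 libraries. It passed for 15 subunits. In 13 nuclear subunits the log2 fold change was lower at 2 weeks than at 1 week, beside 6.07% of all genes. In mt-Nd1 and mt-Nd2 it was higher, beside 3.85% of all genes. Of the 13, 7 belong to complex IV, namely Cox4i1, Cox5a, Cox6b1, Cox6b2, Cox6c, Cox7a1 and Cox7a2l, and 2 each to complexes I, III and V. The change between weeks was -1.63 ± 0.33 for Cox7a1, -0.80 ± 0.10 for Cox7a2l, -0.76 ± 0.11 for Uqcrh, 0.58 ± 0.14 for mt-Nd1 and 0.63 ± 0.16 for mt-Nd2. With the replicate number as a block, 4 subunits passed. They numbered 11 without In vivo 2w replicate 2 and 1 to 7 without any other single library. The count of 1 came without In vitro 2w replicate 2, and with any library left out neither mt-Nd1 nor mt-Nd2 passed.

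Since most nuclear subunits moved in the same direction, their promoters were searched for 4 short motifs. RefSeq windows (GRCm38.p6) of 300 bases, 250 before and 50 after the start site, were found for 68 of the 84 nuclear genes, in 73 windows. Each motif was searched on both strands, and none of the 4 motifs holds another. The ETS core CCGGAAG stood in 16 of the 73 windows (21.9%) and in 8.86% of all 32851 windows. The core of nuclear respiratory factor 1, GCGCATGCG, stood in 8 (10.96%) and in 1.75% of all. The estrogen-related receptor element TCAAGGTCA stood in 2 (2.74%) and in 0.423% of all, and the MEF2 core CTAAAAATA in 0 and in 0.517% of all. These are letter matches only. The 250 bases upstream of 4 subunits are given, 5′ to 3′ along the gene, because they set the muscle isoform Cox7a1 beside its ubiquitous partner Cox7a2 and show 2 subunits with matches. They are Cox7a1 at chr7:30183921-30184170 (plus strand), Cox7a2 at chr9:79759854-79760103 (minus), Cox6a1 at chr5:115348959-115349208 (minus) and Atp5g3 at chr2:73911327-73911576 (minus). Their RefSeq starts differ from those in the expression table, so that 27 bases of the Cox7a1 window, 25 of the Cox7a2 window and 23 of the Cox6a1 window lie inside the gene as that table places it, and 0 of the Atp5g3 window. Capitals mark matches, in Cox6a1 to the nuclear respiratory factor 1 core, which overlaps itself on the 2 strands, and to the ETS core, and in Atp5g3 to the estrogen-related receptor element.
Cox7a1: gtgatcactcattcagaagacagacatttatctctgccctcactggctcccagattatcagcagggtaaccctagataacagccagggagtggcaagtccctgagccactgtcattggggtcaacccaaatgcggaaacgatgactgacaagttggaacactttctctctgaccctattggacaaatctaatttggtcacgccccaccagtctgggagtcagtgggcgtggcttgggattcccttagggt
Cox7a2: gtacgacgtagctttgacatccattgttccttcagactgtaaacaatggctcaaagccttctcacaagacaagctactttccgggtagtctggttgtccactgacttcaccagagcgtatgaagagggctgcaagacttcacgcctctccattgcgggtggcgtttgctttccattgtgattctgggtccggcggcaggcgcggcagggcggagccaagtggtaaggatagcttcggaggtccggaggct
Cox6a1: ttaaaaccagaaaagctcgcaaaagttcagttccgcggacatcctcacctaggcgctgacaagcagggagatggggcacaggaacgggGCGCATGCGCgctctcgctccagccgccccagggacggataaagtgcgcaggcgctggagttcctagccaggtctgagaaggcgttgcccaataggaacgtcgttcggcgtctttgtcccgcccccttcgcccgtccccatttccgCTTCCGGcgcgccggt
Atp5g3: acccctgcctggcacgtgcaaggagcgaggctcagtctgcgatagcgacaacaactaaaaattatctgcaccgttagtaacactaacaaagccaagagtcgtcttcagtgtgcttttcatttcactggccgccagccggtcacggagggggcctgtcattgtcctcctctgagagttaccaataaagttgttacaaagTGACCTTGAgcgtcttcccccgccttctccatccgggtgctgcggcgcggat

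Other gene lists around the same machinery were read in the same fit, in which the shares of all genes called were 20.6% lower and 21.4% higher in week 1, and 25.2% lower and 24.6% higher in week 2. Of 16 tested electron carriers, transporters and related proteins, 7 were lower *in vivo* and 1 was higher at 1 week, and 10 were lower and 0 higher at 2 weeks (median -0.46). Atpif1, the inhibitor of ATP hydrolysis by complex V, was at 14.3 and 18.5 FPKM *in vivo* and 52.7 and 55.1 *in vitro* at 2 weeks (-1.72 ± 0.13). Etfb, which passes electrons from fatty acid oxidation, was lower by 1.59 ± 0.35 and Ucp2, an uncoupling protein, by 1.3 ± 0.14. Of 19 genes of the tricarboxylic acid cycle, 12 were lower *in vivo* in week 1, with 2 higher, and 13 in week 2, with 1 higher (median -0.27). Those called lower at 2 weeks included Suclg2 (-1.14 ± 0.10) and Suclg1 (-0.63 ± 0.09), which encode subunits of succinyl-CoA ligase.

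Lists of factors that build the complexes or express the mitochondrial genome are read against the same shares of all genes, and no difference between lists was tested. Of 43 tested assembly factors, 4 were lower *in vivo* in week 1, with 3 higher, and 5 in week 2, with 5 higher (median -0.14), among them Cox16 (0.72 ± 0.15), Coa7 (-0.68 ± 0.17) and Atpaf2 (-0.54 ± 0.11). Of 77 tested mitochondrial ribosomal proteins, 10 were lower in week 1, with 3 higher, and 24 in week 2, with 1 higher (median -0.19), with Mrps18c (-0.76 ± 0.25), Mrps36 (-0.72 ± 0.08) and Mrps30 (-0.65 ± 0.19) among those called. Of 28 tested genes for replication, transcription and RNA processing in mitochondria, 1 was lower in week 1, with 5 higher, and 6 in week 2, with 5 higher (median 0.03). They included Mgme1, a nuclease of mitochondrial DNA (0.85 ± 0.14), the rRNA methyltransferase Tfb1m (0.75 ± 0.23) and Fastkd3 (-0.67 ± 0.18). Of 19 tested regulators of mitochondrial biogenesis, 4 were lower in week 1, with 5 higher, and 3 in week 2, with 7 higher (median -0.01). Pparg, a nuclear receptor best known from fat cells, was at 1.35 and 1.53 FPKM *in vivo* and 8.52 and 7.87 *in vitro* at 2 weeks (-2.43 ± 0.12). Prkaa2, a catalytic subunit of AMP-activated protein kinase, was lower by 1.19 ± 0.19. Esrrg, an estrogen-related receptor, was at 0.583 to 0.767 FPKM in the *in vivo* libraries and 0.0647 to 0.146 in the *in vitro* libraries (1.55 ± 0.37). It passed the filter on low values only through the group where it is high.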

How the data were processed

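RNA sequencing gave 8 libraries, 2 for each of 4 groups. The deposited values are FPKM per gene, made by the authors' sequencing provider. The submitters' processing notes name CASAVA, HISAT2 2.0.5 and the build mm10. The counting tool is not given in the sources used here. Of the 97 subunit genes, 91 had the same position in GENCODE vM21 (GRCm38). Multiplying FPKM by length gave whole multiples of 1 step in 100% of values (tolerance 0.001), from which fragments per gene were recovered. The deposited FPKM hold a scaling between libraries, since the divisor they imply, over the fragments on genes, was 0.863 to 0.915 in the *in vivo* libraries and 1.09 to 1.15 in the others. 0 columns were left over. PCR copies are not independent molecules, so fragment numbers show counting error alone.

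Values were compared as log2(FPKM + 0.1) with limma 3.58.1 in R 4.3.3, two-sided, with an intensity trend, all 8 libraries in 1 fit and Benjamini-Hochberg adjustment over 15708 genes that reached an FPKM of 0.5 in 2 or more libraries. Fold changes are on that scale, which understates changes of low genes. Errors are SE, with 2 libraries per group. The same-numbered libraries' deviations correlated at -0.02 to -0.01, so numbers were not taken as pairs. In no group did the 2 libraries agree within sampling noise (chi-square per gene of 4.50 to 9.93). Shared sequence was counted as the share of a gene's 100-base stretches, over all its annotated transcripts, found on either strand in a transcript of another gene. The procedure was tested on simulated data.

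The genes named singly are all mitochondrial subunits, the isoform families, complex II, the highest and lowest nuclear subunit of each complex at each time, those past the stricter rule, and up to 3 genes per other list with the largest change at 2 weeks. Ndufs7, Ndufc2, Uqcrfs1, Cox6c and Atp5mpl were named after their values were seen. Some results for single genes are not reported here. The members and lists were chosen with earlier results of these data known. Alternatives were another pseudocount, filter or scaling, protein-coding genes alone, fewer libraries, the replicate number as a block, no trend, limma voom on fragments, a stricter rule and each library left out. FPKM without the scaling between libraries was added after seeing the data. Python 3.11.15, numpy 2.4.6, pandas 2.3.3 and matplotlib 3.10.9 were used. Promoters are from RefSeq.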

Additional observations from a re-analysis of the deposited data

Results flagged for a closer look

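For 15 subunits the log2 fold change of *in vivo* against *in vitro* cells differed between the weeks by limma's interaction test at an adjusted p under 0.05 (2 libraries per group). It was lower at 2 weeks than at 1 week in 13 nuclear subunits, and 14 of the 15 are given here. In complex I the change was -0.42 ± 0.10 (SE) for Ndufc2. In complex III the change was -0.49 ± 0.11 for Uqcrfs1 and -0.76 ± 0.11 for Uqcrh. In complex IV it was -0.42 ± 0.09 for Cox4i1, -0.44 ± 0.10 for Cox5a, -0.50 ± 0.10 for Cox6b1, -0.86 ± 0.20 for Cox6b2, -0.64 ± 0.16 for Cox6c, -1.63 ± 0.33 for Cox7a1 and -0.80 ± 0.10 for Cox7a2l. In complex V it was -0.53 ± 0.13 for Atp5g2 and -0.61 ± 0.15 for Atp5mpl. It was higher at 2 weeks for mt-Nd1 (0.58 ± 0.14) and mt-Nd2 (0.63 ± 0.16). The call was lost in 15 of 20 alternatives for Cox5a, in 14 for Cox6b1, Atp5g2 and mt-Nd2, in 13 for Cox6b2 and mt-Nd1, and in 12 for Cox4i1. It was lost in 9 for Cox7a1, in 2 for Uqcrh and in 1 for Cox7a2l. The alternatives were not followed singly for Ndufc2, Uqcrfs1, Cox6c and Atp5mpl. Groups of 2 libraries are too small to test a single library against the rest.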

How the results depend on the processing

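At 1 week the count of subunits called, *in vivo* against *in vitro*, was 54. It rose to 85 with an equal sum of FPKM over nuclear protein-coding genes, to 86 with limma voom on fragments and to 85 without the scaling between libraries, fell to 7 under the stricter rule, and was 28 to 52 with single libraries left out. Those scalings moved the median of all genes to -0.29, -0.35 and -0.34, and against it the nuclear median stayed at -0.28, -0.27 and -0.28. At 2 weeks the count was 81, and 8 under the stricter rule. All other alternatives gave 67 to 91, and the nuclear median without the scaling was -0.58 against all genes. In all of these every call was lower *in vivo*, except 1 higher at 1 week without either In vivo 2w library, and 1 higher at 2 weeks with a pseudocount of 1, the stricter filter or protein-coding genes only. The change in culture was 60 calls, 35 with the equal sum, 1 under the stricter rule and 27 to 60 with single libraries left out. The sign of the mitochondrial median in culture (0.04) turned with quantile normalization (-0.10), the equal sum (-0.15), voom (-0.01) and no scaling (-0.01). *In vivo* the change over time was 18 calls, 11 with no filter, 2 with the 4 *in vivo* libraries alone, 8 with no trend, 0 under the stricter rule and 2 to 16 with single libraries left out. The difference between weeks was 15 calls, 3 with no filter, 8 with quantile normalization, 26 among protein-coding genes only, 2 with no trend, 0 under the stricter rule and 1 to 11 with single libraries left out. With the replicate number as a block, the counts were 48, 80, 52, 14 and 4 in the order above. The numbers did not pair the libraries, and the block moved only the last count by over 1.5 times. Where 1 library was left out, the lone library of its group was assumed to vary like the other groups. The *in vitro* over *in vivo* ratio of the mitochondrial share at 2 weeks moved from 1.87 to 1.90 when taken of fragments on nuclear protein-coding genes. Atp5g2 at 1 week turned to lower under voom (-0.28), and Atp5e at 2 weeks under voom (-0.33) and without the scaling (-0.33). With 2 libraries per group, subunits with few fragments (mt-Atp8, Cox8b, Cox6a2) had the widest errors.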
